A study of Mus musculus with 18 samples.

Results

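The genes described here encode the inhibitors of DNA binding Id1, Id2 and Id3 and the E proteins they bind, Tcf3 (E2A), Tcf4 (E2-2) and Tcf12 (HEB). They were chosen by symbol, and all 6 were found among the 23329 genes of the count tables. Of these, 5 passed the filter on low counts and were among the 11942 genes tested, while Id3 did not pass and is given by its reads. RNA came from FDH cells, which are immortalised fetal liver cells of BALB/c embryos at E14.5, used at passages 10 to 12. Their strain background was bc-/- bIL-3-/-, so both lines lacked the signalling beta subunits of the IL-3 receptor until they were transduced. The wild-type line carried bc and wild-type IL3Ra (the subunit that binds IL-3), and the P248L line carried bc and IL3Ra P248L, a receptor mutated at Site 4.

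Each line was sampled untreated, that is in growth medium with doxycycline and mouse SCF (stem cell factor) at 100 ng/ml, or after 2 or 5 days in IL-3 at 100 ng/ml. This made 6 groups of 3 libraries, 18 in all. Neither doxycycline nor SCF is named for the medium with IL-3, so a response to IL-3 below includes the withdrawal of both agents. Each receptor was carried by 1 line, so receptor and line cannot be told apart. Nothing in the labels ties the replicates to separate cultures, so p-values measure only the spread between these libraries, which may be technical.

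E proteins are transcription factors of the basic helix-loop-helix (bHLH) class. They pair with each other or with tissue-specific bHLH factors such as Tal1 and bind DNA at E boxes, short sites of the form CANNTG. Id proteins have the helix-loop-helix region but not the basic region that contacts DNA, so an E protein paired with an Id protein is kept off its sites. In blood, E2A and HEB are known for B and T lymphocyte development, E2-2 for plasmacytoid dendritic cells, and Id2 for innate lymphoid cells, natural killer cells and some dendritic cells. Id1 and Id3 are classic targets of BMP and TGF-beta signalling.

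The genes lie on 6 chromosomes of GRCm38.p6. Id1 spans chr2:152736251-152737410, Id2 chr12:25093799-25096092 and Id3 chr4:136143822-136145392. Tcf3 spans chr10:80409541-80433976, Tcf4 chr18:69343429-69687967 and Tcf12 chr9:71844252-72111893. The 3 Id genes are short, at 1160 to 2294 bases from start to end, while Tcf4 and Tcf12 extend over 344539 and 267642 bases.

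Reads in genes numbered 13844612 to 27181962 per library, and levels are given as CPM, counts per 1000000 reads of the TMM-scaled library size. The row named Tcf3 is E2A and not Tcf7l1, which was once also called Tcf3 and has a row of its own, and Tcf7l2, sometimes called TCF4, is likewise separate from Tcf4. Library 1 of P248L untreated stood apart from its group, with a chi-square per degree of freedom of 148 and 209 against libraries 2 and 3. Library 3 of P248L day 2 also stood apart, at 193 and 97.1 against libraries 1 and 2, while all other pairs within a group lay between 5.02 and 38.9. Of the 8 markers listed for early myeloid progenitors, the labelled kind of cell, 7 were found in the files by symbol. Each of the 7 had reads in every group. The remaining marker, Spi1, goes by its older symbol Sfpi1 in the files and was left out for that reason. The list of hepatocyte, stromal and endothelial genes summed to 68.2 to 186 CPM per library. Most of it was Pecam1, which blood cells also express, while Alb and Ttr, defining genes of hepatocytes, had 0 reads in all 18 libraries and Afp reached 14.3 CPM on wild-type day 2. In bulk RNA, fewer cells of a type and less RNA per cell cannot be told apart.

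Because Id proteins act on factors that bind E boxes, E boxes were looked for in the 250 bases before each RefSeq start, on both strands, in the RefSeq windows of Id2, Id3, Tcf3 and Tcf12. The sequences below hold E boxes found before RefSeq starts of genes of the family itself. They are shown because Id2 rose and Tcf3 fell in both lines by day 5. The Tcf3 stretch lies inside the span of Tcf3 given above, so it precedes a start within the gene and not its outermost end. They run 5′ to 3′ on the minus strand of GRCm38.p6, with the E box in capitals. The Id2 stretch is the 89 bases of its window outside annotated exons, and the others are 30 bases each.
Id2, chr12:25096254-25096342: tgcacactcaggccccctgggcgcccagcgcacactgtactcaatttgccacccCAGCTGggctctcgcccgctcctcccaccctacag
Tcf3, chr10:80433672-80433701: agtgggcgtggtCACTTGggggcgtggctt
Tcf12, chr9:72112040-72112069: agatgctgccCAGCTGcgtccccgtcgcgg

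The E box of Id2 begins at position -196 from its RefSeq start, and that of Tcf3 at -54 from a RefSeq start within its span. That of Tcf12 shown begins at -240, also from a RefSeq start within the span of its gene, though the stretch shown lies outside that span. A further Tcf12 window held an E box at -149 and another held none. No CANNTG was found before Id3. Of 32851 promoter windows of the same length, 66.2% held CANNTG, so a match is common. TTCNNNGAA, the core recognised by STAT factors, was in none of these windows and in 7.02% of all. The GGCGCC motif bound by BMP-activated Smads was in the Id2 window at -231, apart from the E box, and in 9.59% of all windows. Windows of Id2, Id3 and Tcf3 each held 18 CpG dinucleotides, and those of Tcf12 held 38, 39 and 0, against a median of 6. These matches describe letters and not sites in use.

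Id2 made the largest change of the family. In wild-type cells it stood at 3.13, 4.53 and 3.15 CPM in untreated libraries 1 to 3, at 42.1, 44.2 and 35.3 CPM on day 2 and at 857, 818 and 744 CPM on day 5. The 3 groups did not overlap. The rise was 11.2-fold by day 2 (log2 fold change 3.48 ± 0.22 SE, edgeR adjusted p = 4.5e-10) and 222-fold by day 5 (log2 fold change 7.80 ± 0.25, adjusted p = 2.1e-14). Between day 2 and day 5 it rose by a further 4.31 ± 0.21 on the log2 scale (adjusted p = 6.2e-12).

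In P248L cells Id2 was still low on day 2. It stood at 3.27, 1.93 and 1.67 CPM untreated, at 3.47, 3.69 and 5.07 CPM on day 2 and at 314, 247 and 309 CPM on day 5. Untreated and day 2 libraries were separated by a narrow margin, and day 5 libraries lay far above both. The day 2 value was 0.79 ± 0.23 on the log2 scale (edgeR adjusted p = 0.013). That call was lost with the replicate number as a block in these 6 libraries (0.83, adjusted p = 0.1), and also without P248L day 2 library 3 (0.62, adjusted p = 0.067) or without P248L untreated library 2 (0.68, adjusted p = 0.059). With only these 6 libraries fitted and no block it was 0.82 (edgeR adjusted p = 0.12). The day 5 rise was 124-fold (log2 fold change 6.96 ± 0.25, adjusted p = 9.6e-14). Between day 2 and day 5 the gain was 6.17 ± 0.24 on the log2 scale (adjusted p = 4.5e-13).

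Id1 peaked on day 2 in both lines. In wild-type cells it read 25.9, 27.7 and 24.3 CPM untreated, 156, 149 and 177 CPM on day 2 and 58.3, 51.2 and 53.6 CPM on day 5, with no overlap between the groups. It rose 6.19-fold by day 2 (log2 fold change 2.63 ± 0.25, edgeR adjusted p = 1.4e-07). It then fell by 1.56 ± 0.24 on the log2 scale to day 5 (adjusted p = 1.4e-05), and remained above the untreated level by 1.07 ± 0.24 (adjusted p = 0.00065).

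In P248L cells Id1 stood at 72.7, 40.7 and 31.1 CPM untreated, 188, 139 and 105 CPM on day 2 and 96.2, 96.6 and 79.9 CPM on day 5. The untreated libraries were spread widely, with library 1, which stood apart across genes, the highest. Id1 rose 2.99-fold by day 2 (log2 fold change 1.58 ± 0.24, edgeR adjusted p = 6e-05), and its day 5 level was above the untreated one by 0.91 ± 0.24 (adjusted p = 0.0022). Without untreated library 1 these values were 2.00 (adjusted p = 4.5e-07) and 1.33 (adjusted p = 6.7e-06). The fall from day 2 to day 5 was 0.67 ± 0.23 on the log2 scale (adjusted p = 0.017), a call that was lost without P248L day 2 library 1 (adjusted p = 0.076) or P248L day 5 library 3 (adjusted p = 0.067).

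Id3 was close to absent, with 60 reads in all 18 libraries. Wild-type cells had 0 reads untreated, 11 on day 2 and 5 on day 5. P248L cells had 16, 22 and 4 reads in untreated libraries 1 to 3, 2 in all on day 2 and 0 on day 5. The highest mean level, that of P248L untreated, was 0.526 CPM. From a floor of 3 reads over the group at 0, and the reads observed in the other group, Id3 was at least 13.2-fold higher in P248L than in wild-type untreated cells, at least 4.22-fold higher on wild-type day 2 than untreated, and at least 9.73-fold lower on P248L day 5 than untreated. On day 2 in P248L cells it was 15.6-fold lower than untreated, with an exact 95% interval of 4.06 to 133 that covers counting error only. The folds from the floor have no interval and do not allow for counting error in the other group. With no filter on low counts (16344 genes), the edgeR adjusted p of Id3 was 0.0036 for wild-type day 2 against untreated, 3e-05 for P248L day 5 against untreated and 7.4e-05 for the untreated lines. Id4, the remaining gene of the Id family, had 0 reads in every library, which allows up to 0.0616 CPM in the shallowest group from a floor of 3 reads.

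**Figure D1:**
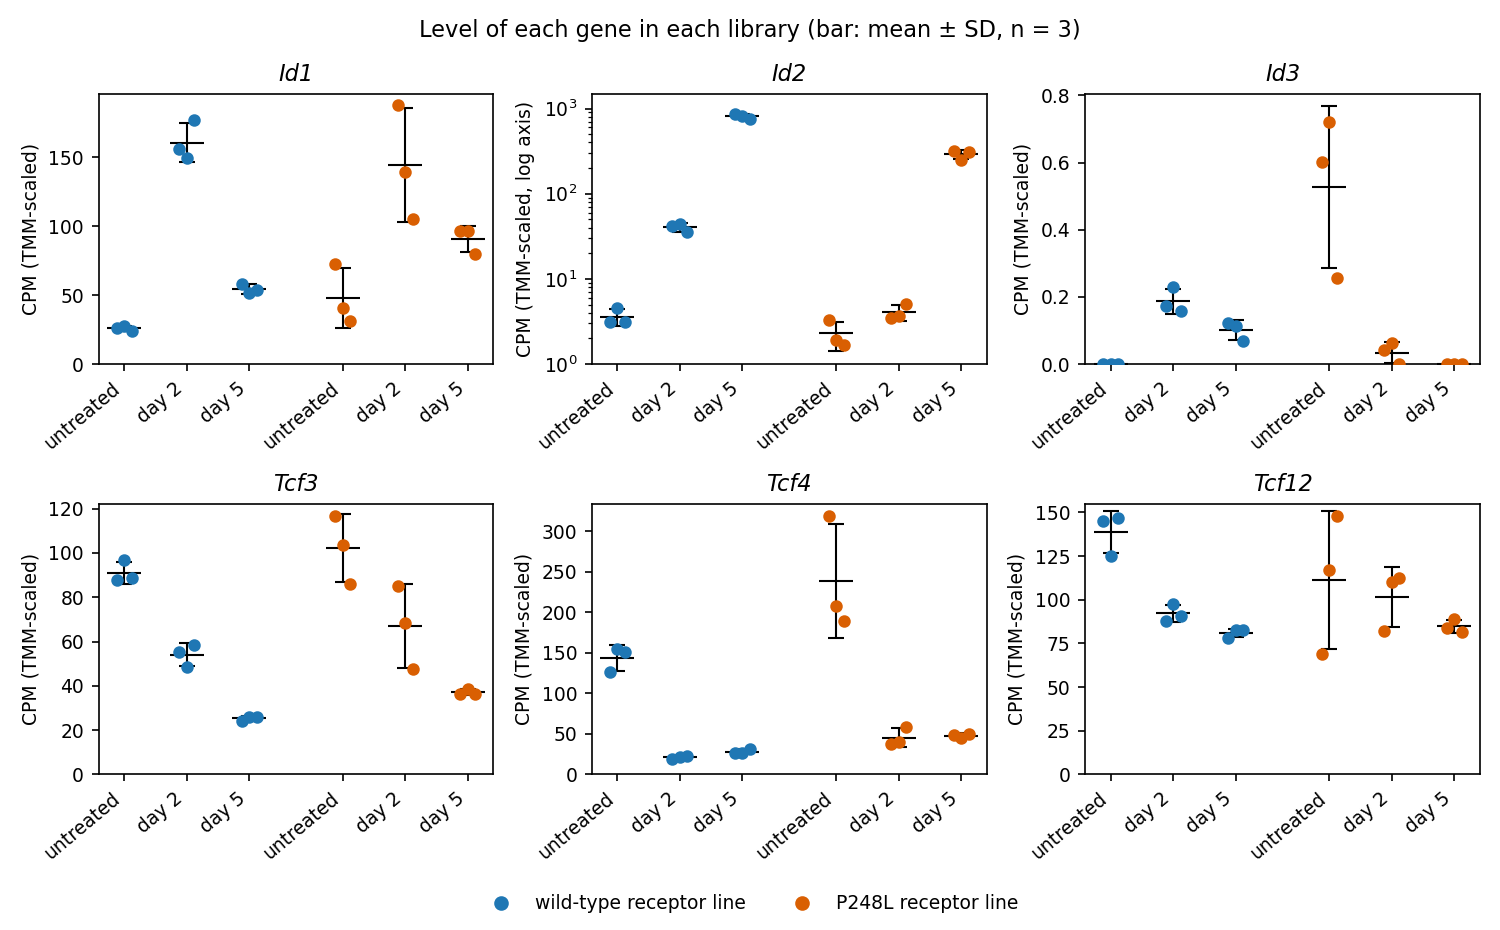
Level of each gene (CPM, TMM-scaled; log axis for Id2) in each of the 18 libraries, by line and time, with points for libraries and bars for the mean and SD of 3. Id2 climbs to between 744 and 857 CPM on wild-type day 5, Id1 is highest on day 2, Tcf3 and Tcf4 are lower at both times in IL-3 than untreated, and Id3 stays under 1 CPM.

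Tcf3, which encodes the E12 and E47 proteins, fell stepwise in both lines. In wild-type cells it read 87.9, 96.6 and 88.5 CPM untreated, 55.1, 48.4 and 58.4 CPM on day 2 and 24.1, 26.0 and 25.9 CPM on day 5, with no overlap between groups. It fell 1.69-fold by day 2 (log2 fold change -0.75 ± 0.16, edgeR adjusted p = 0.0011) and 3.59-fold by day 5 (log2 fold change -1.84 ± 0.17, adjusted p = 1.9e-08). The step from day 2 to day 5 alone was -1.09 ± 0.17 (adjusted p = 1.3e-05).

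P248L cells read 117, 104 and 86.0 CPM of Tcf3 untreated, 85.1, 68.4 and 47.6 CPM on day 2 and 36.5, 38.6 and 36.2 CPM on day 5. The highest day 2 library came within 1 CPM of the lowest untreated one, and day 5 libraries lay below all others of the line. Tcf3 was 2.75-fold lower on day 5 than untreated (log2 fold change -1.46 ± 0.17, edgeR adjusted p = 3.9e-07). On day 2 the value was -0.61 ± 0.16 (adjusted p = 0.0066), and it was -0.30 (adjusted p = 0.061) without the 2 libraries that stood apart. With only the 6 libraries compared it kept its size (-0.60) but not the call (edgeR adjusted p = 0.13). Between day 2 and day 5 it fell by 0.86 ± 0.16 on the log2 scale (adjusted p = 0.00016).

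Tcf4 made the largest fall among the 5 genes of the family that were tested, which leaves out Id3, and made it by day 2. In wild-type cells it read 126, 154 and 151 CPM untreated, 18.7, 21.3 and 22.7 CPM on day 2 and 25.8, 25.8 and 31.3 CPM on day 5. Every library in IL-3 lay far below every untreated one. The fall was 6.89-fold by day 2 (log2 fold change -2.78 ± 0.20, edgeR adjusted p = 4e-09) and 5.20-fold by day 5 (log2 fold change -2.38 ± 0.20, adjusted p = 5.5e-09). Between day 2 and day 5 the value was 0.40 ± 0.19 and did not pass (adjusted p = 0.072). It passed when only the 6 libraries compared were fitted (0.40, adjusted p = 0.0066), with DESeq2 (0.51, adjusted p = 0.026) and with DESeq2 size factors (0.51, adjusted p = 0.031).

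P248L cells read 319, 207 and 189 CPM of Tcf4 untreated, 37.4, 39.6 and 58.7 CPM on day 2 and 48.4, 45.0 and 50.4 CPM on day 5. Untreated library 1 was again the highest, and libraries of day 2 and day 5 overlapped. The fall was 5.29-fold by day 2 (log2 fold change -2.40 ± 0.20, edgeR adjusted p = 5.4e-08) and 4.98-fold by day 5 (log2 fold change -2.32 ± 0.20, adjusted p = 9.3e-09). The value from day 2 to day 5 was 0.09 ± 0.19 (adjusted p = 0.7), with a 95% interval of -0.31 to 0.49. It passed without the 2 libraries that stood apart (edgeR adjusted p = 0.024).

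Tcf12 varied least among the 5 genes of the family that were tested. In wild-type cells it read 145, 125 and 147 CPM untreated, 88.1, 97.5 and 90.9 CPM on day 2 and 78.2, 82.4 and 82.5 CPM on day 5. All libraries in IL-3 lay below all untreated ones, and those of day 2 lay above those of day 5. It fell by 0.59 ± 0.19 on the log2 scale by day 2 (edgeR adjusted p = 0.018) and by 0.78 ± 0.19 by day 5 (adjusted p = 0.0015). The day 2 call was lost without any one of 4 libraries, day 2 library 1 (adjusted p = 0.064) or 3 (adjusted p = 0.053) or untreated library 1 (adjusted p = 0.057) or 3 (adjusted p = 0.06). From day 2 to day 5 the value was -0.19 ± 0.19 (adjusted p = 0.4), and it passed when only the 6 libraries compared were fitted (-0.19, adjusted p = 0.027).

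In P248L cells Tcf12 read 68.9, 117 and 148 CPM untreated, 82.0, 110.2 and 113 CPM on day 2 and 84.0, 89.0 and 81.5 CPM on day 5. The untreated libraries covered the whole range of the other groups of the line, library 1 being the lowest. Neither day 2 (-0.13 ± 0.19, edgeR adjusted p = 0.62) nor day 5 (-0.39 ± 0.19, adjusted p = 0.078) differed from untreated past the threshold. Without untreated library 1 both passed, at -0.38 (adjusted p = 0.034) and -0.64 (adjusted p = 0.00037). Day 5 against day 2 was -0.26 ± 0.19 (adjusted p = 0.24), with a 95% interval of -0.66 to 0.14.

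**Figure D2:**
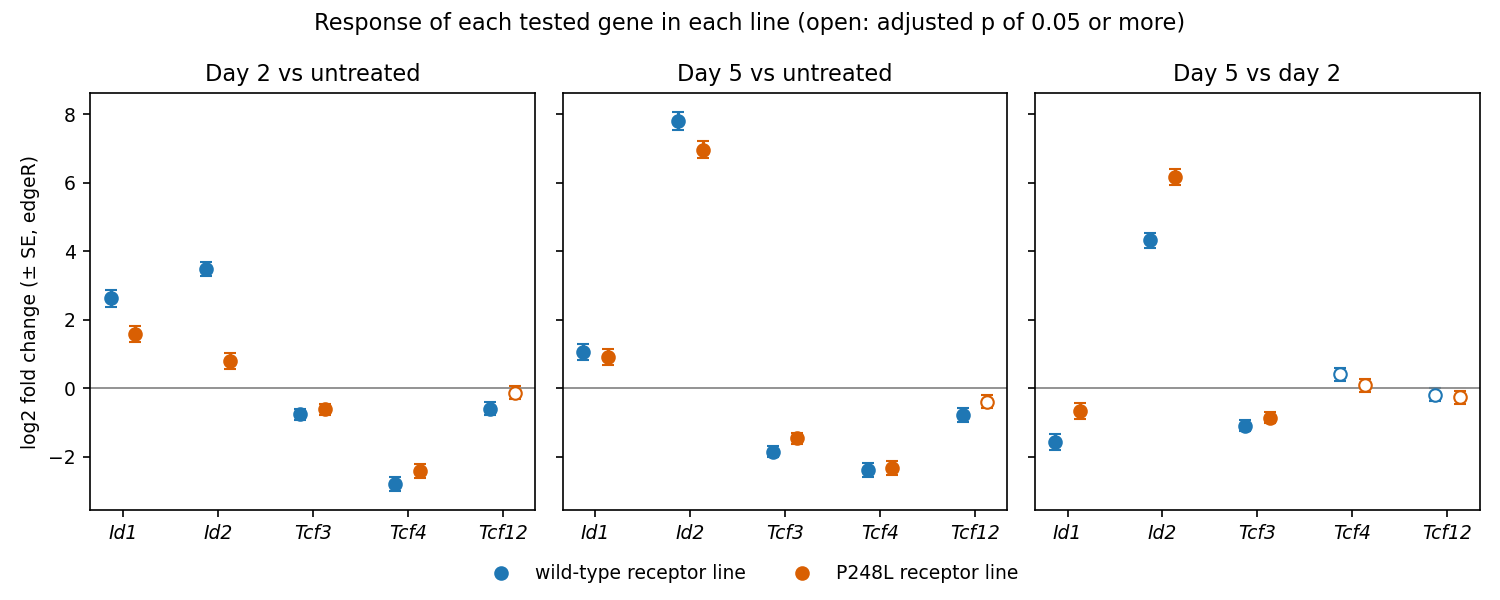
Log2 fold changes (± SE, edgeR) of the 5 tested genes between times in each line, open where the adjusted p was 0.05 or more. Id2 changes by 7.80 in wild-type and 6.96 in P248L cells by day 5, and in the day 2 panel its values in the lines, 3.48 and 0.79, lie furthest apart.

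By call, 2 of the 5 tested genes were higher (Id1 and Id2) and 3 lower (Tcf3, Tcf4 and Tcf12) on wild-type day 2 than untreated, where 43.9% of all tested genes were called (22.1% higher and 21.8% lower). On wild-type day 5 the counts were again 2 and 3, where 73.1% were called (35.7% higher and 37.4% lower), so a call there sets no gene apart. Between wild-type day 2 and day 5, 1 was higher and 2 lower, against 70.7% of all tested genes (36% higher and 34.7% lower). In P248L cells 2 were higher and 2 lower on day 2, where 40% were called (18.5% higher and 21.5% lower), and 2 and 2 on day 5, where 71.1% were called (34.8% higher and 36.2% lower). From P248L day 2 to day 5, 1 was higher and 2 lower, with 70.2% of all tested genes called (37.1% higher and 33.1% lower). Libraries of the compared groups did not overlap, over all tested genes, in 64.2% on wild-type day 2 and 83.2% on day 5 against untreated, and in 82.6% between the 2 days. In P248L cells these shares were 35.8%, 70.6% and 70.6%. By size, the wild-type day 2 value of Id2 was above that of 96.8% of tested genes and that of Id1 above 95.4%, while 1.56% of tested genes lay below Tcf4.

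The lines were next compared at each time, which asks whether the P248L change in the receptor goes with other levels of these genes. Untreated, Id1 was 1.86-fold and Tcf4 1.66-fold higher in P248L cells (log2 fold changes 0.90 ± 0.24, edgeR adjusted p = 0.013, and 0.73 ± 0.19, adjusted p = 0.0098). These 2 genes were called and 3 were not, where 21.7% of all tested genes were called (10.3% higher and 11.3% lower) and 34.3% had libraries that did not overlap. Both calls rested on P248L untreated library 1: without it Id1 was 0.47 (adjusted p = 0.11) and Tcf4 0.46 (adjusted p = 0.064). They were also lost when only the 6 untreated libraries were fitted, at 0.91 (adjusted p = 0.11) and 0.74 (adjusted p = 0.076). Leaving out 1 wild-type library ended each call too, library 3 for Id1 (0.86, adjusted p = 0.056) and library 1 for Tcf4 (0.65, adjusted p = 0.054). Id2 read -0.64 ± 0.23 (adjusted p = 0.057), and -0.99 (adjusted p = 0.0057) without P248L untreated library 1.

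On day 2 Id2 was lower in P248L than in wild-type cells by 3.33 ± 0.22 on the log2 scale (edgeR adjusted p = 1.3e-09), and Tcf4 was 2.16-fold higher (log2 fold change 1.11 ± 0.19, adjusted p = 0.00021). All 3 P248L libraries lay below 6 CPM of Id2 and all 3 wild-type libraries above 35 CPM. Id1 (-0.15 ± 0.23, 95% interval -0.65 to 0.34), Tcf3 (0.31 ± 0.16, -0.03 to 0.66) and Tcf12 (0.14 ± 0.19, -0.26 to 0.54) did not pass. Thus 1 gene was higher and 1 lower, where 35.8% of all tested genes were called (15.5% higher and 20.3% lower) and 46.3% did not overlap. Without P248L day 2 library 3, Tcf3 also passed (0.51, adjusted p = 0.0065).

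On day 5 the 2 lines differed in 4 of the 5 genes, where 45.5% of all tested genes were called (22.8% higher and 22.7% lower). Id2 was 2.78-fold lower in P248L cells (log2 fold change -1.47 ± 0.19, edgeR adjusted p = 4.4e-06). Id1 was 1.67-fold higher (0.74 ± 0.24, adjusted p = 0.016), Tcf3 1.46-fold higher (0.55 ± 0.17, adjusted p = 0.012) and Tcf4 1.73-fold higher (0.79 ± 0.19, adjusted p = 0.0025). For each of these 4 the libraries of the lines did not overlap on day 5, as was so for 65.9% of all tested genes. The call of Id1 was lost without wild-type day 5 library 2 (0.70, adjusted p = 0.057). Tcf12 read 0.07 ± 0.19, with a 95% interval of -0.34 to 0.47.

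Whether the responses themselves differed was tested as the P248L response minus the wild-type response. On day 2 the response of Id2 was smaller in P248L cells by 2.69 ± 0.31 on the log2 scale (edgeR adjusted p = 1.9e-05), the only call among the 5 genes, where 9.55% of all tested genes were called (3.05% higher and 6.5% lower). Id1 read -1.05 ± 0.33 (adjusted p = 0.057), with a 95% interval of -1.75 to -0.35 that is not adjusted for the number of genes. It passed with the replicate block (-1.04, adjusted p = 0.031), with DESeq2 (-1.01, adjusted p = 0.032), with no filter (-1.05, adjusted p = 0.044) and without P248L day 2 library 1 (-1.28, adjusted p = 0.017) or P248L untreated library 3 (-1.27, adjusted p = 0.0083). The E proteins did not pass: Tcf3 was 0.15 (-0.33 to 0.63), Tcf4 0.38 (-0.18 to 0.95) and Tcf12 0.46 (-0.11 to 1.03). Tcf12 passed without P248L untreated library 3 (0.72, adjusted p = 0.05, rounded).

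On day 5 the difference of Id2 responses was -0.84 ± 0.30 (edgeR adjusted p = 0.044), again the only call, where 26.9% of all tested genes were called (14.7% higher and 12.2% lower). It was lost with the replicate block (-0.82, adjusted p = 0.056), with limma-voom (-0.81, adjusted p = 0.056) and with no scaling (-0.61, adjusted p = 0.087). It was also lost without any one of 9 libraries, namely each day 5 library of either line, wild-type untreated 1 or 3, and P248L untreated 1 (edgeR adjusted p from 0.051 to 0.22). Without P248L untreated library 1 the value was -0.48. Id1 (-0.16, -0.86 to 0.55), Tcf3 (0.38, -0.11 to 0.87), Tcf4 (0.06, -0.50 to 0.63) and Tcf12 (0.39, -0.18 to 0.96) did not pass. Without both libraries that stood apart Tcf3 passed (0.49, edgeR adjusted p = 0.021).

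Ordered by mean, Id2 ran from wild-type day 5 over P248L day 5 and wild-type day 2 to P248L day 2, wild-type untreated and P248L untreated, and only the last 3 overlapped from one to the next. For Id1 the order was wild-type day 2, P248L day 2, P248L day 5, wild-type day 5, P248L untreated and wild-type untreated. Its 2 day 2 groups overlapped, as did wild-type day 5 and P248L untreated. Tcf3 was highest in the 2 untreated groups, then in the 2 day 2 groups, with overlap within each pair, and lowest on wild-type day 5. Tcf4 ran from P248L untreated to wild-type untreated, then to the overlapping P248L day 5 and day 2 groups, and to wild-type day 5 and day 2. All neighbouring groups overlapped for Tcf12.

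Levels of different genes were compared only per kilobase of exon. Summed over each class, Id1, Id2 and Id3 stood at 23.8 ± 1.76 CPM per kilobase in wild-type untreated cells, at 155 ± 10.5 on day 2 and at 378 ± 25.1 on day 5 (SD, n = 3). In P248L cells the Id sum was 42.7 ± 19.2, 126 ± 35.5 and 197 ± 13.6. The E-protein sum moved the other way, from 36.7 ± 0.976 to 20.1 ± 1.06 and 12.5 ± 0.496 in wild-type cells and from 41.2 ± 3.66 to 24.8 ± 3.32 and 16.4 ± 0.464 in P248L cells.

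The ratio of the Id sum to the E-protein sum was 0.649 in wild-type untreated cells (0.602 to 0.683 over 3 libraries), 7.73 on day 2 (7.58 to 7.90) and 30.3 on day 5 (27.3 to 33.6). In P248L cells it was 1.02 (0.734 to 1.43), 5.02 (4.39 to 5.90) and 12.1 (10.9 to 13.1). The lines' ranges did not overlap at any of the 3 times, and P248L was the higher line untreated and the lower one in IL-3. Within each line the 3 times did not overlap either. No test was made of these ratios, because they are sums over genes chosen with earlier results known.

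The size of the ratio depended on the length used. With the median length of coding transcripts in place of all exons it was 0.161, 2.60 and 11.5 in wild-type cells and 0.219, 1.54 and 4.11 in P248L cells. The untreated ranges of the lines then overlapped, at 0.144 to 0.173 and 0.157 to 0.296. The order of the E proteins also depended on it. In wild-type untreated cells Tcf3 was highest per kilobase of all exons, at 22.5 against 8.94 for Tcf12 and 5.25 for Tcf4. With the median transcript length Tcf4 was highest, at 78.1 against 61.5 for Tcf12 and 32.1 for Tcf3. Tcf4 has 27382 bases of annotated exon over 62 transcripts, but a median coding transcript of 1841.5 bases. The make-up of the Id sum shifted from Id1 to Id2. Over all exons Id2 was 6.16% of it in wild-type untreated cells, 10.8% on day 2 and 87.6% on day 5, and 2.25%, 1.45% and 60.2% in P248L cells.

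**Figure D3:**
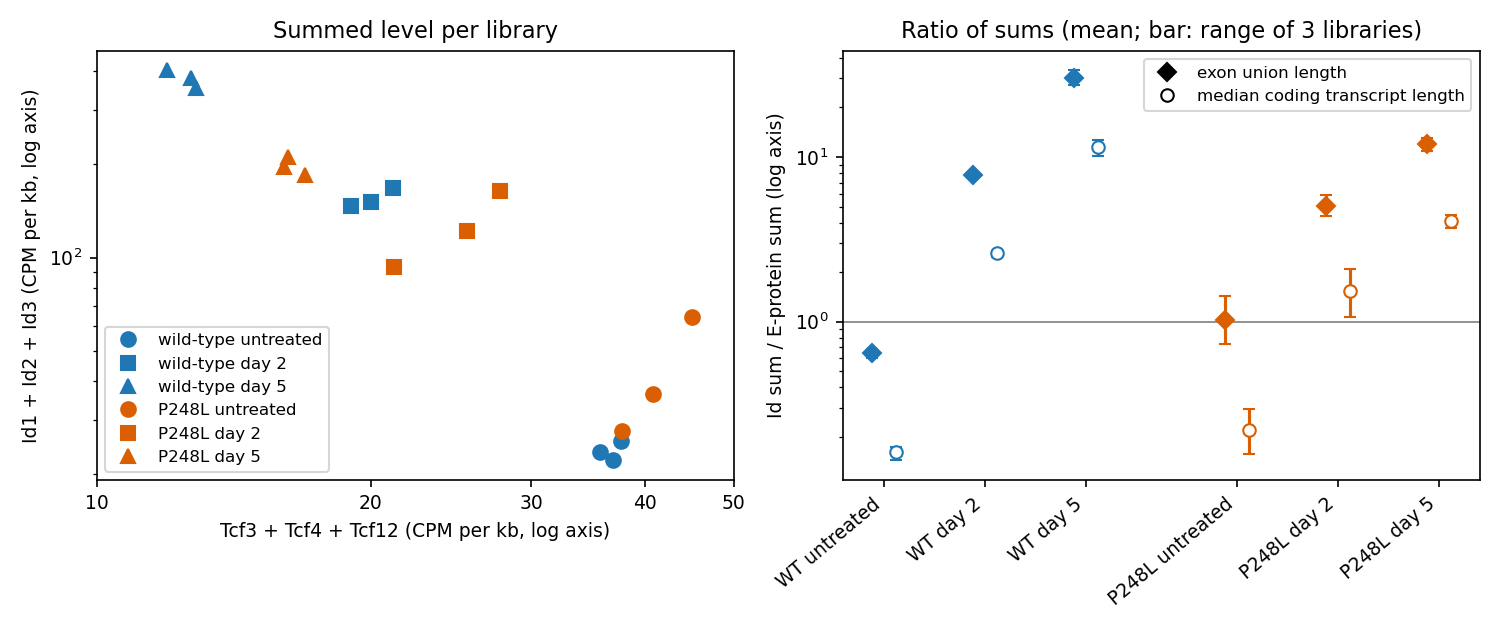
Left, summed Id level against summed E-protein level (CPM per kilobase of exon, log axes), 1 point per library. Right, their ratio (log axis) by group, mean and range of 3 libraries, for all exons and for the median coding transcript: the ratio climbs with time in both lines under either length, to 30.3 on wild-type day 5 and 12.1 on P248L day 5 over all exons.

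Over the 18 libraries Id2 and Tcf3 were most opposed, with a Pearson correlation of log2 CPM of -0.941. Id1 and Id2 were only loosely related (0.209), and Tcf3 and Tcf4 ran together (0.732). Id1 was opposed to Tcf4 (-0.676), and so was Id2 (-0.673). These are descriptions: the libraries fall into 6 groups with shared treatment, so they are not 18 independent points.

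The genes most like each member were found over all tested genes in the same way. For Id2 they were Anxa4, a calcium-dependent membrane-binding protein, and Il1rn, the interleukin-1 receptor antagonist (both 0.994), followed by Ppp1r3d (0.992) and Trp53inp2 (0.991). Such likeness was common for Id2, with 381 genes over 0.95. For Id1 only 1 gene was over 0.95, Rgs19, a regulator of G-protein signalling (0.972), ahead of Ywhag (0.946), Crcp (0.931) and Opn3 (0.930). Tcf3 was most like Idh2, the mitochondrial isocitrate dehydrogenase (0.988), Pold1, a DNA polymerase subunit (0.985), Abhd14a (0.984) and Nmral1 (0.982), with 83 genes over 0.95. Tcf4 was most like Sox4, a transcription factor of progenitors (0.985), Paip2 (0.984), Lmo2 (0.974) and Ypel1 (0.970), with 15 over 0.95. Tcf12 was most like Prkdc, the catalytic subunit of the DNA-dependent kinase (0.963), and Wrn, a DNA helicase (0.957), the only 2 over 0.95, then Zfp664 (0.940) and Zfp62 (0.929).

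Of 18 tissue-specific bHLH partners and other Id genes listed, only Tal1 and Lyl1 were expressed highly enough to test. Tal1, a regulator of blood stem and erythroid cells, measured 45.1, 41.5 and 35.0 CPM in untreated wild-type libraries, 25.0, 27.4 and 28.5 CPM on day 2 and 29.97, 25.5 and 15.99 CPM on day 5. In P248L cells it stood at 67.0, 58.4 and 61.9 CPM, then 45.7, 47.7 and 49.0 CPM, then 8.85, 10.7 and 8.72 CPM. By day 5 it fell by 0.76 ± 0.17 on the log2 scale in wild-type (edgeR adjusted p = 0.00071) and by 2.73 ± 0.19 in P248L cells (adjusted p = 4.9e-10). The difference of day 5 responses, P248L minus wild-type, was -1.97 ± 0.25 (adjusted p = 1.5e-05). Its relative Lyl1 fell in both lines by day 5, by 0.90 ± 0.25 (adjusted p = 0.0035) and 0.77 ± 0.25 (adjusted p = 0.011), and the difference did not pass (0.14 ± 0.35, adjusted p = 0.82). Of the 2 tested genes, 0 rose and 1 fell on day 2 in each line (Tal1 in wild-type, Lyl1 in P248L), where 21.8% and 21.5% of all tested genes fell. On day 5, 0 rose and 2 fell in each line, where 37.4% and 36.2% of all tested genes fell.

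Of 17 partners and cofactors listed that assemble with E proteins on DNA, 14 were tested, and more of them fell than rose. On wild-type day 2, 1 rose and 4 fell (median log2 fold change -0.07, against 0 over all tested genes), and on day 5, 2 rose and 8 fell (-0.61 against -0.05). In P248L cells 0 rose and 5 fell on day 2 (-0.25 against -0.01) and 2 rose and 9 fell on day 5 (-1.17 against -0.02). The share of the list called was near that of all tested genes, at 35.7% against 43.9% on wild-type day 2, 71.4% against 73.1% on wild-type day 5, 35.7% against 40% on P248L day 2 and 78.6% against 71.1% on P248L day 5. Lmo2, the bridging protein that links Tal1 and E proteins to Gata factors, fell from 258, 313 and 245 CPM to 92.6, 101 and 99.5 CPM on wild-type day 2 and from 369, 328 and 295 CPM to 148, 149 and 196 CPM on P248L day 2 (log2 fold changes -1.48 ± 0.14, edgeR adjusted p = 1.4e-07, and -1.01 ± 0.14, adjusted p = 2.2e-05). Gata2, a progenitor transcription factor, fell by day 5 from 72.5, 87.4 and 75.0 CPM to 60.4, 53.4 and 40.3 CPM in wild-type and from 80.7, 74.5 and 58.5 CPM to 9.73, 8.67 and 8.22 CPM in P248L cells. The fall was deeper in P248L cells, with a difference of responses of -2.40 ± 0.26 (adjusted p = 2.7e-06). Ssbp2, a subunit of the Ldb1 complex, fell by 2.55 ± 0.13 in wild-type and 1.52 ± 0.13 in P248L cells by day 5 (adjusted p = 9e-12 and 7.5e-09), here the deeper fall being in wild-type cells (difference of responses 1.03 ± 0.18, adjusted p = 0.00035). Kat2a, a histone acetyltransferase, fell by 1.75 ± 0.17 and 1.71 ± 0.17 (adjusted p = 3.3e-08 and 5.4e-08).

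In the BMP and TGF-beta pathway, to which Id1 and Id3 are known to respond, genes went both ways. Of 29 listed, 21 were tested. In wild-type cells 3 rose and 11 fell on day 2 (median -0.35, against 0 over all tested genes) and 8 rose and 8 fell on day 5 (-0.00 against -0.05). In P248L cells 2 rose and 9 fell on day 2 (-0.48 against -0.01) and 8 rose and 8 fell on day 5 (-0.06 against -0.02). On day 2, 66.7% of the tested list was called in wild-type and 52.4% in P248L cells, against 43.9% and 40% of all tested genes. On day 5 it was 76.2% in both lines, against 73.1% and 71.1%. Tgfbr2, the type II TGF-beta receptor, rose by day 5 from 27.7, 31.0 and 29.0 CPM to 748, 726 and 750 CPM in wild-type and from 20.2, 26.4 and 25.4 CPM to 287, 218 and 231 CPM in P248L cells. The rise was smaller in P248L by 1.31 ± 0.18 on the log2 scale (edgeR adjusted p = 3e-05). Smurf1, a ubiquitin ligase acting on Smads, rose by 3.69 ± 0.18 and 2.73 ± 0.18 by day 5 (adjusted p = 3.5e-12 and 2.7e-10). Smad5, a BMP-activated Smad, fell in both lines (log2 fold changes -2.95 ± 0.16 and -2.32 ± 0.16, adjusted p = 2e-11 and 5.3e-10), as did Bambi, a decoy receptor (-4.42 ± 0.26 and -4.69 ± 0.26, adjusted p = 5.2e-11 and 3.9e-11).

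**Figure D4:**
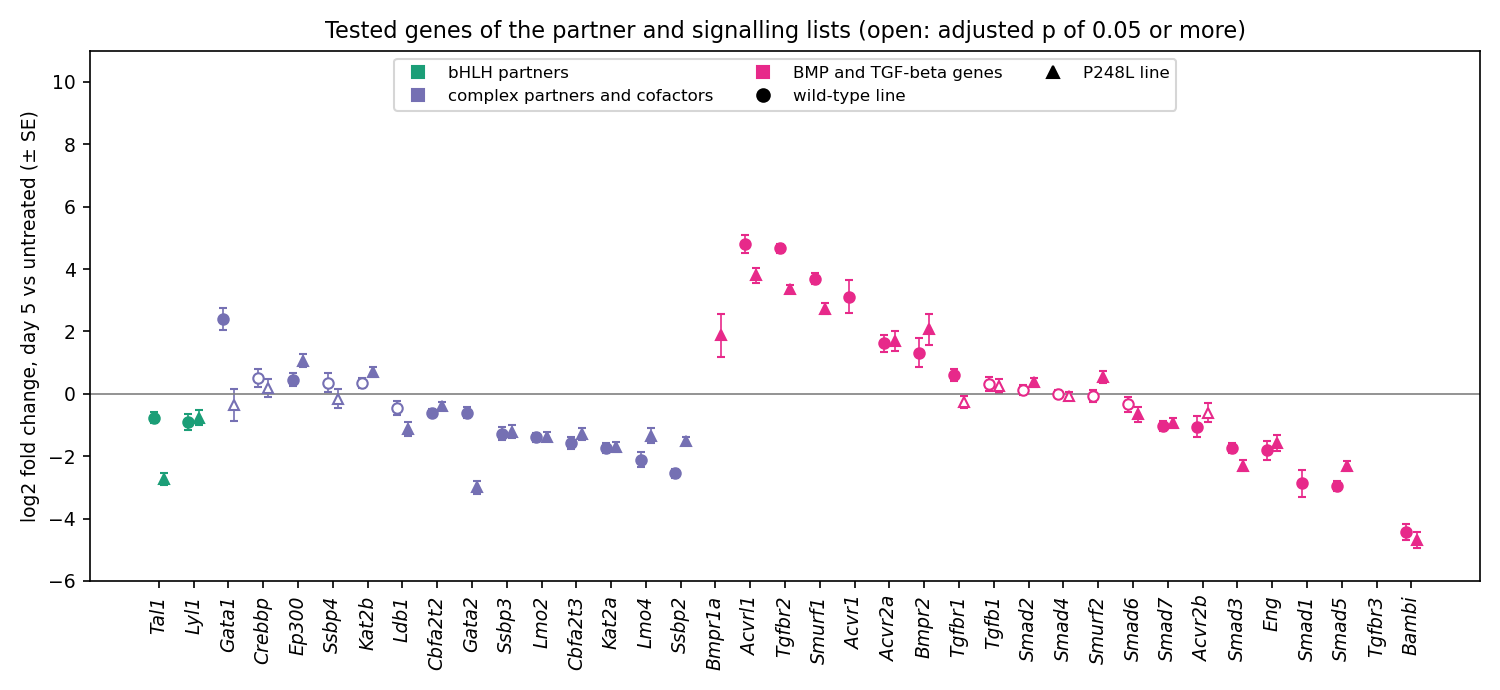
Log2 fold changes (± SE, edgeR) from untreated to day 5 of the tested genes of 3 lists, circles for the wild-type and triangles for the P248L line, open where the adjusted p was 0.05 or more. No point is drawn where either group held 3 reads or fewer; Tal1 and Gata2 lie lower in P248L cells, and Bambi falls by more than 4 in both lines.

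Among genes known as E-protein targets in lymphoid progenitors, 7 of 20 were tested. The regulators of the B lineage Pax5 and Ebf1, named here for their low values, had 0 reads and 1 read in all 18 libraries. Rag2, a subunit of the recombinase of lymphocytes, had 124 reads over the untreated wild-type and 97 over the untreated P248L libraries and 0 on day 5 in both lines. Its highest level in any library was 2.04 CPM. In wild-type cells 4 rose and 3 fell on day 2 (median 0.74, against 0 over all tested genes) and 5 rose and 2 fell on day 5 (1.44 against -0.05). In P248L cells 2 rose and 4 fell on day 2 (-0.55 against -0.01) and 3 rose and 2 fell on day 5 (0.38 against -0.02). All 7 were called on both days in wild-type cells, where 43.9% and 73.1% of all tested genes were called. In P248L cells 85.7% were called on day 2 and 71.4% on day 5, against 40% and 71.1% of all tested genes. Each of these medians was the same with genes that had 0 reads in a group set at their bound. Cdkn1a, a cell cycle inhibitor, went from 31.9, 34.1 and 33.2 CPM in untreated wild-type libraries to 281, 269 and 283 CPM on day 2, and in P248L cells from 99.2, 65.2 and 55.3 CPM to 206, 156 and 139.9 CPM. Its day 2 response was smaller in P248L by 1.88 ± 0.29 on the log2 scale (edgeR adjusted p = 0.00032). Il7r, the interleukin-7 receptor chain, went from at most 0.116 CPM untreated in wild-type to 204, 244 and 292 CPM on day 5, and from 0 reads in P248L untreated to 69.6, 72.6 and 72.7 CPM. Notch1 rose by 1.66 ± 0.18 and 2.48 ± 0.19 by day 5 (adjusted p = 1.8e-07 and 1.7e-09), and Gfi1, a repressor in granulocyte development, fell by 1.88 ± 0.17 and 1.49 ± 0.17 (adjusted p = 2.2e-08 and 5e-07).

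Marker genes of other blood cells changed alongside. The summed level of monocyte and macrophage markers, 7 of 8 found, was 152 to 186 CPM in wild-type untreated libraries, 689 to 822 on day 2 and 33357 to 41441 on day 5. In P248L cells it was 107 to 145, 247.7 to 327 and 14789 to 20142 CPM. Neutrophil markers, 8 of 8 found, summed to 68.2 to 104, 15133 to 18622 and 9203 to 14809 CPM in wild-type and to 4.16 to 7.87, 97.1 to 172 and 28137 to 40378 CPM in P248L cells. Early myeloid progenitor markers, 7 of 8 found, summed to 8817 to 9721, 4128 to 4583 and 1178 to 1313 CPM in wild-type cells. In P248L cells they summed to 7535 to 10116, 6307 to 10902 and 1733 to 1919 CPM. In wild-type cells 2 of these 7 rose and 3 fell on day 2, and 1 rose and 6 fell on day 5 (medians 0.24 and -4.44). In P248L cells 2 rose and 2 fell on day 2, and 2 rose and 5 fell on day 5 (medians 0.33 and -2.14). The wild-type day 2 sum thus fell while the median marker did not. Of all tested genes 43.9% and 73.1% were called in wild-type and 40% and 71.1% in P248L cells.

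Between the untreated lines, 6 of the 8 neutrophil markers were lower in P248L cells and 2 did not pass (median log2 fold change -4.45). Of all tested genes, 11.3% were lower there. Between the lines on day 2, where Id2 differed most, all 8 neutrophil markers were lower in P248L cells. On that day 15.5% of all tested genes were higher and 20.3% lower. Of the 6 monocyte and macrophage markers tested, 1 was higher, 2 were lower and 3 did not pass, and Lyz2 made up most of the wild-type sum at a mean of 541 CPM. On day 5, 4 of the 8 neutrophil markers were higher in P248L cells and 4 did not pass, while Id2 was lower. Between the lines on day 5, 22.8% of all tested genes were higher and 22.7% lower. Mast cell markers, 6 of 6 found, summed to 498 to 662, 789 to 1103 and 2082 to 3070 CPM in wild-type and to 469.8 to 555, 253 to 257 and 28.4 to 49.4 CPM in P248L cells. Cpa3 carried the wild-type day 5 sum at a mean of 2552 CPM, and of the 3 markers tested 2 were lower in P248L cells on day 5. Basophil markers, 4 of 4 found, stood at 92.5 to 113 CPM on wild-type day 5 and 9.54 to 12.96 CPM on P248L day 5. Of the 2 tested, 1 was lower in P248L cells on day 5 and 1 did not pass. On wild-type day 5 against untreated, 1 was higher and 1 lower (median log2 fold change -0.57), where 73.1% of all tested genes were called. This list shares a gene with that of mast cells.

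Plasmacytoid dendritic markers, where Tcf4 is known to act, did not move as 1 set. Of the 8 tested of 12, 3 rose, 4 fell and 1 did not pass on wild-type day 5 (median log2 fold change -0.43), and 4 rose, 1 fell and 3 did not pass on P248L day 5 (median 0.65). Their sum went from 243 to 259 CPM in wild-type untreated libraries to 906 to 996 CPM on day 5, carried by Bst2 and Tlr7 at means of 432 and 374 CPM. In P248L cells it was 253 to 298 CPM untreated and 451 to 514 CPM on day 5. Siglech, a defining marker of those cells, had 270 reads over the 3 untreated wild-type libraries, 4 over the untreated P248L libraries, 1 on P248L day 2 and 0 in the other groups. Conventional dendritic markers, where Id2 is known to act, summed to 130.1 to 145, 7.31 to 7.67 and 99.96 to 105 CPM in wild-type and to 113 to 142, 5.29 to 5.87 and 37.1 to 40.4 CPM in P248L cells. Of these 9 conventional dendritic markers 5 were tested. In wild-type cells 3 rose and 1 fell on day 2, and 4 rose and 1 fell on day 5 (medians 0.98 and 5.01). In P248L cells 1 rose and 2 fell on day 2, and 4 rose and 1 fell on day 5 (medians 1.31 and 3.12). Over all tested genes 43.9% and 73.1% were called in wild-type and 40% and 71.1% in P248L cells. The sums thus went against most tested markers in wild-type cells and on P248L day 5. B cell markers reached 50.5 to 53.9 CPM on wild-type day 5 and 6.72 to 8.71 CPM on P248L day 5. All of the former and nearly all of the latter was Cd22. Natural killer and innate lymphoid markers reached at most 11.1 CPM in any library, T cell markers 8.65 CPM, erythroid markers 6.94 CPM, eosinophil markers 24.2 CPM and megakaryocyte markers 54.0 CPM. The part of changing cell make-up in the levels of the Id and E-protein genes was not tested.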

How the data were processed

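RNA-seq of 18 libraries, 3 for each of 6 groups, was used as deposited. The authors deposited read counts per gene for each library in the layout of STAR gene counts, unnormalised, with alignment to mm10 by STAR per the submitters' processing notes. For the STAR version and the gene annotation, the sources used here give no name. The column counting reads on the reverse strand was used, since the other strand held 1.17 to 2.54% of the reads in genes of both strands together. Rows that name no gene were left out of library sizes, and reads assigned to no single gene were 27.9 to 38.1% per library. Genes were filtered with edgeR's filterByExpr (minimum count 10), scaled by TMM and fitted with edgeR 4.0.16 (R 4.3.3) as 6 group means over all 18 libraries, which leaves 12 residual degrees of freedom. Every adjusted p is from edgeR's quasi-likelihood F test with Benjamini-Hochberg adjustment over 11942 genes and a threshold of 0.05, unless another tool, filter or set of libraries is named. Fits of fewer libraries were filtered anew. Their adjusted p, and those under other filters, were adjusted over the genes that each fit tested. The standard error is the size of the log2 fold change divided by the square root of F, and 95% intervals are unadjusted. The script was tested on simulated data. Intervals for Id3 cover counting error only. Its folds from the floor of 3 reads have no interval and do not allow for counting error in the other group.

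Exon lengths came from GENCODE M21, and positions and promoter windows from RefSeq for GRCm38.p6 (mm10). Of 5 genes looked up, 4 had promoter windows, 6 in all, and Id1 had none. One promoter sequence is not reported here. Figures used matplotlib 3.10.9 with Python 3.11.15. Named genes were the 6 members, Id4, Tal1, Lyl1 and Lmo2, up to 4 genes of smallest adjusted p on day 5 per list, and the 4 genes most correlated with each member. Beyond that rule, single marker or list genes named to show what carries a sum or is absent (Alb, Ttr, Afp, Pecam1, Pax5, Ebf1, Rag2, Siglech, Bst2, Tlr7, Cd22, Lyz2 and Cpa3) were chosen after their values were seen. The members and lists were chosen with earlier results of these data known. Alternatives were DESeq2 1.42.0, limma-voom (limma 3.58.1), other scalings and filters, fits of only the libraries compared, a replicate block, and leaving out libraries. Replicate numbers are shared between groups by label alone. Deviations of same-numbered libraries correlated above 0.1 in all 3 pairs only for P248L day 2 against untreated (0.175 to 0.460), so a block was also fitted there, an alternative chosen after the data were seen.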

Additional observations from a re-analysis of the deposited data

Results flagged for a closer look

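The response of Id2 differed between the lines when the difference itself was tested. On day 2 the P248L response minus the wild-type response was -2.69 on the log2 scale (edgeR adjusted p = 1.9e-05), with all 3 wild-type day 2 libraries between 35.3 and 44.2 CPM and all 3 P248L day 2 libraries between 3.47 and 5.07 CPM. On day 5 it was -0.838 (edgeR adjusted p = 0.044). That call was lost under 13 of 23 alternatives (adjusted p up to 0.22), and the value was -0.48 without P248L untreated library 1.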

How the results depend on the processing

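Of 1000 alternative values for 55 results on the 5 tested genes, 926 kept direction and call, 32 lost the call, 26 gained it and 16 changed sign. None of those that changed sign was called, and 32 of the 55 results changed neither sign nor call under any alternative. When only the libraries compared were fitted, genes called fell from 4775 to 1657 for P248L day 2 against untreated, from 2587 to 1205 for the untreated lines and from 1140 to 727 for the difference of day 2 responses. For wild-type day 5 against day 2 the number of genes called rose from 8439 to 9433. Leaving out 1 library gave 1524 to 4535 genes for the untreated lines and 788 to 1915 for the difference of day 2 responses. Of the genes of the family, the fit of only the libraries compared called 2 instead of 4 for P248L day 2 against untreated, 0 instead of 2 for the untreated lines and 5 instead of 3 for wild-type day 5 against day 2. For the difference of day 2 responses 1 was called, against 2 with DESeq2, 3 with no filter (Id3 is then tested) and 2 with the replicate block, and 1 to 4 with 1 library left out. Over all genes 1140 were called there, against 1658, 1023 and 1190 in those settings. For the difference of day 5 responses 1 gene of the family was called, against 0 with limma-voom, 2 with no filter, 0 with no scaling and 0 with the replicate block, and 0 to 2 with 1 library left out. Over all genes 3207 were called there, against 3642, 2987, 3533 and 3253 in those settings, and 2493 to 4019 with 1 library left out. For the untreated lines, 1 to 4 genes of the family were called with 1 library left out. Leaving out 1 library let Id3 pass the filter in 10 of 12 fits for each difference of responses and in 4 of 6 for the untreated lines, so the family counts are not of the same genes. Without Id3 the family counts were 1 to 3 for the day 2 difference, 0 to 1 for that of day 5 and 1 to 3 for the untreated lines. The cause of these changes was not tested.

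Sign changes were these. Id1 in P248L against wild-type on day 2 (-0.15) was 0.029 without both libraries that stood apart and -0.37 to 0.029 with 1 library left out. The difference of day 5 responses of Id1 (-0.16) was 0.27 without both, 0.087 with no scaling and -0.42 to 0.27 with 1 left out. With 1 library left out, Tcf12 on P248L day 2 (-0.13) ranged from -0.38 to 0.14 and the Tcf3 difference of day 2 responses (0.15) from -0.049 to 0.34. Tcf4 from P248L day 2 to day 5 (0.09) was -0.013 with no scaling and -0.10 to 0.31 with 1 left out. Its difference of day 5 responses (0.06) was -0.0022 with only the libraries compared and -0.11 to 0.33 with 1 left out. In the added replicate block over the 6 P248L untreated and day 2 libraries, Id2 was 0.83 (edgeR adjusted p = 0.1) and Tcf4 kept its call. No scaling moved the median of all genes by -0.17 on wild-type day 2, -0.44 on wild-type day 5, -0.27 between these days, -0.11 on P248L day 2, -0.23 on P248L day 5, 0.12 between the lines on day 5 and 0.21 for the difference of day 5 responses. The share of calls that were higher then went from 50.4 to 36% on wild-type day 2, 48.9 to 34.4% on day 5, 51 to 40.5% between these days, 46.3 to 34.4% on P248L day 2, 47.7 to 35.8% for the untreated lines and 54.6 to 72.7% for the difference of day 5 responses. DESeq2 size factors moved the median by 0.12 on wild-type day 5. Depth limits Id3, with 60 reads in all.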
